A study of Mus musculus with 8 samples.

Results

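Genes of the angiotensin system were examined in the injured tibialis anterior, taken whole at day 8 after cryoinjury from old male mice of the C57BL/6 strain. The list holds 9 genes: Agt, Ace, Enpep, Anpep and Lnpep for the precursor and the enzymes, Agtr1a, Agtr2 and Mas1 for the receptors, and Agtrap for a receptor-binding protein. It was selected on a readout of these arrays, since Agtr2 and Agtr1a were picked from the rIL-33 against PBS comparison, so the treatment differences of the members are a description and support no claim. Of the 9 genes, 8 had a value among the 19752 genes with a probe set of a single symbol. Mas1 was left out of the tests as dim (below the 25th percentile of gene means, a log2 intensity of 6.65), which left 7 of 14814 genes tested. Lnpep was not analysed here.

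The muscle had been injured with a metal probe chilled in liquid nitrogen and held on for 8 s. One group received recombinant interleukin (rIL-33, 2 µg into the peritoneal cavity on the days before and after the injury) and the other carried the treatment label PBS, with 4 arrays in each group. The age is 99 weeks in the labels and 22 months in the design text. The genetic background was entered as C57BL/6 for the first 2 arrays of either group and as WT for the other 2 (replicates 3 and 4), with no word on how these differ. All 8 samples were of injured muscle, so uninjured muscle was not part of the comparison. The labels do not state that each array is a separate mouse, so p-values measure only the spread between these samples, which may be technical.

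The angiotensin system turns a secreted precursor into signalling peptides. Angiotensinogen, made mainly by liver and also by fat and stromal cells, is cut by renin to angiotensin I, which angiotensin-converting enzyme trims to angiotensin II. Angiotensin II acts on the type 1 receptor, which drives vasoconstriction, growth and fibrosis, and on the type 2 receptor, which often opposes it and is abundant in fetal and injured tissue. Aminopeptidases then shorten the peptide further. In skeletal muscle both receptors have been linked to regeneration and wasting.

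Probe sets of Affymetrix Mouse Gene 1.0 ST arrays were deposited as intensities, and values below are log2 intensities unless said otherwise. The median intensity over all probe sets was 222.6 to 232.2 on the 8 arrays. The spread differed by label, with lower quartiles of 88.3 to 93.8 and upper quartiles of 569.5 to 590.4 on the C57BL/6-labelled arrays, against 97.1 to 107.3 and 511.6 to 560.2 on the WT-labelled ones. Muscle fibre markers matched the labelled tissue, with all 8 of them above the dim cut-off and the creatine kinase gene Ckm at 13.76 ± 0.13 with PBS and 13.79 ± 0.09 with rIL-33 (SD, n = 4 per group). Levels of different genes are not set against each other, because probe sets differ in their response.

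Promoter windows of RefSeq (build GRCm38.p6, 250 bases before to 50 after a start site) were at hand for 8 of the 9 genes, with a pair of windows for Ace and none for Agtr1a. Those of Agtr2, Agt and Ace are printed because these genes carry the receptor, precursor and enzyme results below and share a feature. The choice of members did not use this feature, but the choice of windows to print did. Each has TATAA or TATATA on the gene's own strand, starting 40 to 20 bases before the start site, which 3.89% of all 32851 windows have. The letters searched were TATAA and TATATA on both strands, which can overlap, and either occurs somewhere in 26.5% of all windows. Capitals mark every match.
Agtr2, chrX:21484374-21484673, plus strand: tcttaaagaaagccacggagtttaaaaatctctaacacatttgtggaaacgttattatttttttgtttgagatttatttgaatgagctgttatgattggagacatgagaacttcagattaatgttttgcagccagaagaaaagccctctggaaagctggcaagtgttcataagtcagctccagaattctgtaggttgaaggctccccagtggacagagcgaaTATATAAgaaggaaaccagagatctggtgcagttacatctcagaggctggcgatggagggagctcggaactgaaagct
Agt, chr8:124569657-124569956, minus strand: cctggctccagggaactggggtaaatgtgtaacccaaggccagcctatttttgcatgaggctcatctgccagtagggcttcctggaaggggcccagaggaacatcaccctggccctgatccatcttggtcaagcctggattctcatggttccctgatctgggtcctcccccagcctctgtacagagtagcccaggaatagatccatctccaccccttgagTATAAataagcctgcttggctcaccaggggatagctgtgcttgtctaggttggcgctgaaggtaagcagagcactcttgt
Ace, chr11:105967698-105967997, plus strand: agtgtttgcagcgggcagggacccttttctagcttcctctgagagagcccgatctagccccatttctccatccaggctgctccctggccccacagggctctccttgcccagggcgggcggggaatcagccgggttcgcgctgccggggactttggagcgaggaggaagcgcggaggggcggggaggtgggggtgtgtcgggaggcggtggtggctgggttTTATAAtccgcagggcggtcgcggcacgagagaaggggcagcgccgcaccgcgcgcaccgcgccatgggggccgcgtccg

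In the Agtr2 window the match begins 28 bases before the start site, in that of Agt 30 bases before and in that of Ace 29 bases before. The second Ace window, further downstream, has no match, and neither do those of Mas1, Agtrap, Lnpep and Anpep. The Enpep window has matches, but none of them on its own strand within 40 to 20 bases before the start. The windows also differed in CpG count. It was 1 for Agt, 5 for Agtr2, 7 for Enpep and 2 for Mas1 and for the second Ace window, against 20 for Agtrap, 28 for Anpep, 29 for the first Ace window and 30 for Lnpep, and the median of all windows was 7. A match is a run of letters and not a measured site.

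**Figure D1:**
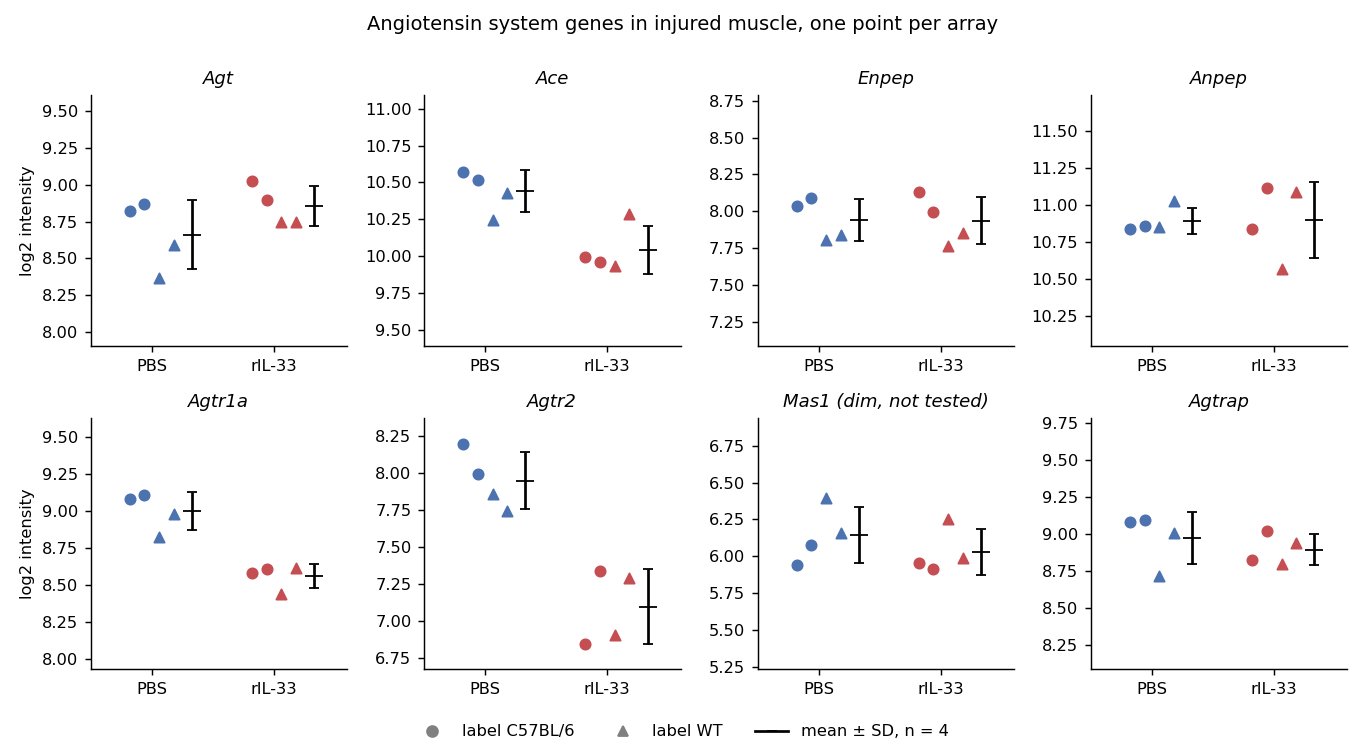
Log2 intensity of the 8 angiotensin system genes with a value, 1 point per array, circles for the label C57BL/6 and triangles for WT, with mean ± SD beside each group (n = 4); every panel spans the same number of log2 units. All rIL-33 arrays lie below all PBS arrays for Agtr1a and Agtr2, and the WT triangles of Agt and Enpep lie below the circles.

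Agtr2 encodes the type 2 angiotensin II receptor, a G protein-coupled receptor whose gene is on the X chromosome. With PBS its level (probe set 10599001) was 8.20, 8.00, 7.86 and 7.75 in replicates 1 to 4. With rIL-33 it was 6.85, 7.34, 6.91 and 7.29. The lowest PBS array stood above the highest rIL-33 array. The means were 7.95 ± 0.19 and 7.10 ± 0.26 (SD, n = 4 per group), a difference of -0.85 (SE 0.14), so that the rIL-33 mean was 55.3% of the PBS mean in intensity. All 4 rIL-33 arrays stayed above the dim cut-off of 6.65. In whole muscle, fewer cells of a type and less RNA per cell cannot be told apart. Split by label it was -1.01 for C57BL/6 and -0.70 for WT.

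Agtr1a encodes the main type 1 receptor of the mouse. Its level (probe set 10404376) was 9.08, 9.11, 8.82 and 8.98 in the PBS replicates and 8.58, 8.61, 8.44 and 8.61 in the rIL-33 replicates. Again no rIL-33 array reached the lowest PBS array. The means were 8.997 ± 0.129 and 8.560 ± 0.082 (SD, n = 4 per group), a difference of -0.44 (SE 0.08), or 73.8% of the PBS intensity. Within the labels the difference was -0.50 (C57BL/6) and -0.38 (WT). The gene of the near-identical mouse paralog, Agtr1b, was not analysed here, and whether its transcript adds to this probe set was not tested.

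Ace, the converting enzyme on the surface of endothelium and of some fibroblasts and macrophages, was lower on average with an overlap between the groups. PBS replicates stood at 10.57, 10.52, 10.25 and 10.43, and rIL-33 replicates at 9.996, 9.96, 9.94 and 10.28 (probe set 10381962). The overlap came from the WT-labelled arrays, where rIL-33 replicate 4 lay just above PBS replicate 3. The group means were 10.44 ± 0.14 and 10.04 ± 0.16 (SD, n = 4 per group), a difference of -0.40 (SE 0.10), or 75.9% of the PBS intensity. Split by label it was -0.57 for C57BL/6 and -0.23 for WT.

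Agt, the precursor gene, lay the other way. Its level (probe set 10582658) was 8.82, 8.87, 8.37 and 8.59 with PBS and 9.03, 8.90, 8.75 and 8.75 with rIL-33, and the groups overlapped. The means were 8.66 ± 0.23 and 8.85 ± 0.13 (SD, n = 4 per group), a difference of 0.19 (SE 0.12). Within the labels the mean difference was 0.12 (C57BL/6) and 0.27 (WT), with 2 arrays per treatment in each. Without PBS replicate 3, the lowest array, the pooled difference was 0.09.

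The remaining members differed little between the treatments. Agtrap, whose product binds the type 1 receptor and promotes its internalisation, averaged 8.97 ± 0.18 in the PBS group and 8.89 ± 0.10 in the rIL-33 group (SD, n = 4 per group), differing by -0.08 (SE 0.10). Its PBS arrays ran from 8.72 to 9.09 and its rIL-33 arrays from 8.80 to 9.02. Enpep, aminopeptidase A, which removes the first residue of angiotensin II, stood at 7.94 in both groups (SD 0.14 for PBS and 0.16 for rIL-33), a difference of -0.01 (SE 0.10). Anpep, aminopeptidase N or CD13, a broad ectoenzyme of stromal and myeloid cells, averaged 10.89 ± 0.09 in the PBS group and 10.90 ± 0.26 in the rIL-33 group, differing by 0.01 (SE 0.12). The rIL-33 arrays of Anpep ran from 10.57 in replicate 3 to 11.12 in replicate 2, and all 4 PBS arrays lay between 10.84 and 11.03. Mas1, a G protein-coupled receptor of a shorter angiotensin peptide, ran from 5.94 to 6.40 with PBS and from 5.91 to 6.26 with rIL-33, under the dim cut-off on all 8 arrays.

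None of the 7 tested members passed an adjusted p of 0.05 in the limma fit over all 14814 genes, in which 0.00675% of genes were called. The adjusted p was 0.305 for Agtr2, 0.489 for Agtr1a and for Ace, 0.613 for Agt and between 0.842 and 0.992 for the other 3. With the genetic background label as a term it was 0.246 for both receptors, 0.265 for Ace and 0.285 for Agt. Groups without overlap, lower with rIL-33, were seen in Agtr1a and Agtr2, and in 2.13% of all genes tested. These counts rest on the contrast that served to pick the receptors, so nothing is read from them.

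**Figure D2:**
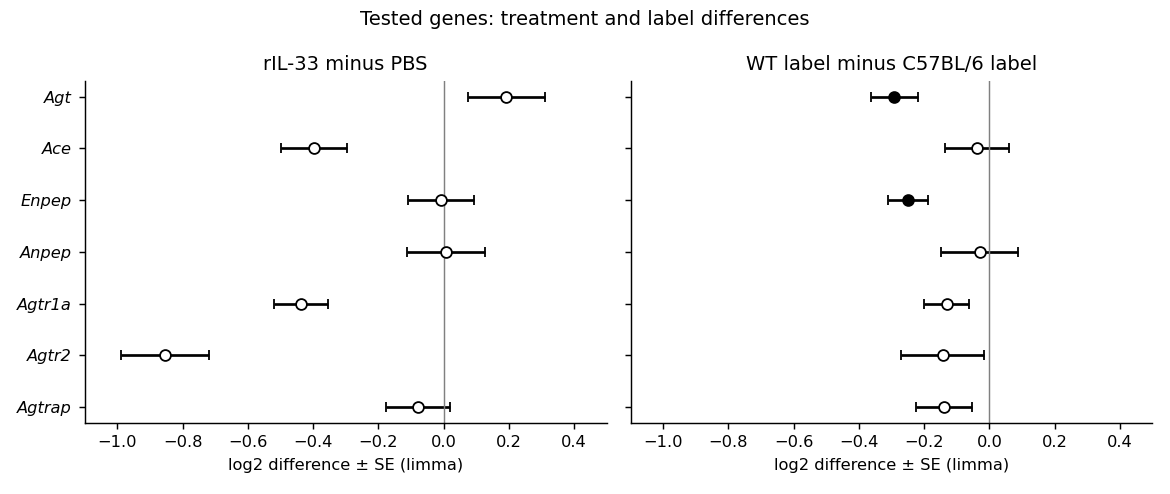
Log2 difference ± SE of the limma fit for the 7 tested genes, rIL-33 minus PBS on the left and WT label minus C57BL/6 label on the right; filled points passed an adjusted p of 0.05. No treatment difference passed; Agt (-0.29) and Enpep (-0.25) passed for the label.

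The contrast between the genetic background labels played no part in choosing the genes and was tested with treatment in the model. Agt and Enpep were lower on the WT-labelled arrays. Agt was 8.90 ± 0.09 on the C57BL/6-labelled and 8.61 ± 0.18 on the WT-labelled arrays (SD, n = 4 per label), a difference of -0.29 (SE 0.07, limma adjusted p = 0.0414). Enpep stood at 8.04, 8.09, 8.13 and 8.00 on the C57BL/6-labelled arrays and at 7.80, 7.84, 7.77 and 7.85 on the WT-labelled ones, PBS replicates first. Its means were 8.06 ± 0.06 and 7.82 ± 0.04 (SD, n = 4 per label), a difference of -0.25 (SE 0.06, limma adjusted p = 0.0405). For both genes every WT-labelled array lay below every C57BL/6-labelled one, as in 11.1% of all genes tested.

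These 2 calls among 7 members stand beside 9.40% of all genes tested (1392, of which 473 were higher and 919 lower with WT), and genes called lower with WT were 6.20%. The other 5 members were also lower with WT, as were 54.1% of all genes tested, and did not pass. They differed by -0.13 (Agtr1a), -0.14 (Agtr2), -0.04 (Ace), -0.14 (Agtrap) and -0.03 (Anpep), with limma adjusted p between 0.214 and 0.881. The sign of Ace and of Anpep turned under quantile normalization (0.06 and 0.06) and cyclic loess (0.07 and 0.07). The narrower intensity distribution of the WT-labelled arrays moved with this contrast. After quantile normalization, which equalises the distributions, Agt differed by -0.215 (limma adjusted p = 0.0835) and Enpep by -0.25 (limma adjusted p = 0.0541), so neither call held there. The Enpep difference itself was unchanged at -0.2486, with an unadjusted limma p of 0.00180 there and 0.00231 in the main fit. With cyclic loess the Enpep call held (limma adjusted p = 0.0471) and that of Agt did not (0.0718). Of 16 alternative settings, Agt passed in 6 and Enpep in 8, with limma adjusted p of 0.0122 to 0.124 and 0.0115 to 0.124. Both calls were lost when any array other than rIL-33 replicate 2 was left out, with the same sign throughout.

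Whether the treatment difference of a gene varied with the label was tested by an interaction term. It called none of the 7 members and 0% of all genes (0 of 14814 in limma, with 473 genes, or 3.19%, at an unadjusted p under 0.05). It was 0.34 for Ace (SE 0.18, limma adjusted p = 0.999). For Agtr2 it was 0.30 (SE 0.25) and for Agtr1a 0.12 (SE 0.14), so these arrays do not resolve a difference of that size between the labels. With 1 array left out it ran from 0.17 (without rIL-33 replicate 4) to 0.51 (without rIL-33 replicate 3) for Ace and from 0.0556 (without rIL-33 replicate 1) to 0.55 (without rIL-33 replicate 2) for Agtr2. For Agtr1a it ran from 0.0371 (without rIL-33 replicate 4) to 0.21 (without rIL-33 replicate 3).

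**Figure D3:**
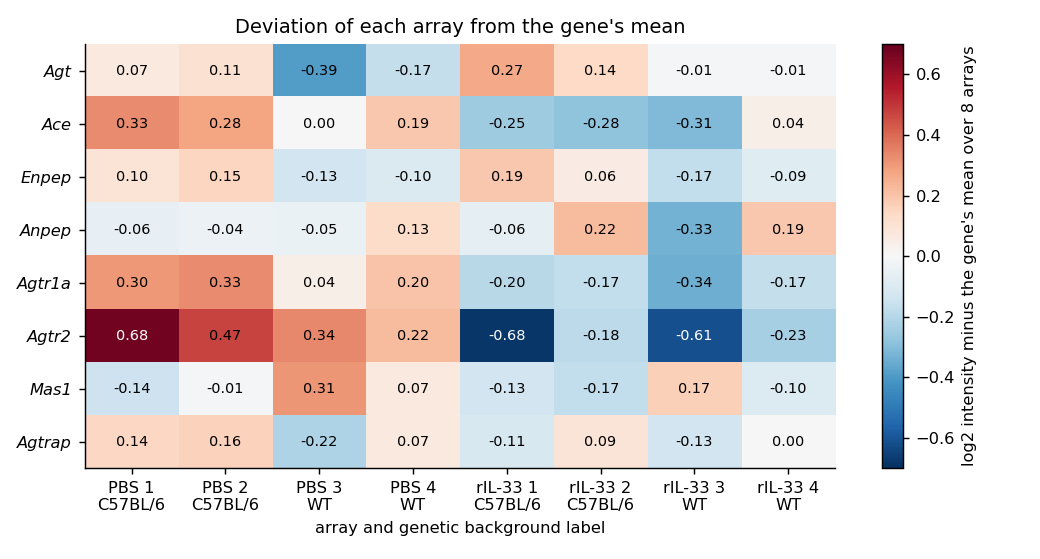
Deviation of each array (columns, with the genetic background label) from the gene's mean over 8 arrays, in log2 units, for the 8 genes (rows). Agtr1a and Agtr2 are above 0 on all PBS arrays and below 0 on all rIL-33 arrays, whereas Enpep follows the label.

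The members were also compared with each other over the single arrays. Across the 8 arrays, Agtr1a correlated with Agtr2 (Pearson r = 0.93) and with Ace (r = 0.93), and Ace with Agtr2 (r = 0.89). These values contain the treatment difference and the arrays are shared, so they are a description. In deviations from the treatment group means, which keep the label difference, r was 0.57 for Agtr1a and Agtr2, 0.75 for Agtr1a and Ace, and 0.56 for Agtr2 and Ace. In the same deviations r was 0.91 for Agt and Enpep, both lower with the WT label, and 0.90 for Agtr1a and Agtrap, while Mas1 ran against Agtr1a (r = -0.93), Agtrap (r = -0.83) and Agt (r = -0.81). Mas1 is dim, and its level on the WT-labelled arrays was 0.23 above that on the C57BL/6-labelled ones, where the lower quartile of all probe sets was also lower.

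The tested genes most like each receptor and Ace over the 8 arrays were found by Pearson r. The ranking uses values that contain the treatment difference, on which the receptors were picked. Genes that rank high therefore share its direction by construction. For Agtr2 they were Tril (r = 0.98), Mdk (0.98), P2ry12 (0.97), Boc (0.97) and Mtmr11 (0.96), all lower with rIL-33 by 0.30 to 0.43 in log2 mean without passing the threshold. Mdk encodes the growth factor midkine and Boc a receptor of the hedgehog pathway. For Agtr1a they were Dcn (0.97), Adgre4 (0.96), Gfra1 (0.96), Lum (0.96) and Tril (0.95). Dcn and Lum encode decorin and lumican, small proteoglycans of fibroblasts. For Ace they were Dctn4 (0.96), Agmo (0.95), Pi15 (0.95), Lpcat2 (0.95) and Egfl7 (0.95), the last an endothelial secreted protein gene.

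Deviations from the treatment group means, which leave the treatment difference out but keep the label difference, gave other genes. Genes that share a label difference can therefore rank high. For Agtr2 they were Notch3 (r = 0.99), a receptor of mural cells and satellite cells, Cpxm1 (0.97), Pax7 (0.96), the transcription factor of satellite cells, Ttyh2 (0.96) and Plxna2 (0.95). For Agtr1a they were Zkscan1 (1.00), Kremen1 (0.99), Irak1bp1 (0.98), Snx12 (0.98) and Parp2 (0.98). For Ace they were Arsk (0.96), Zfp866 (0.95), Ptafr (0.95), Lrmp (0.94) and Arid2 (0.94). With 8 arrays and 14814 genes these values are a ranking only. Dcn is also among the fibroblast progenitor markers below and Notch3 among the pericyte markers.

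Other genes that form or cut angiotensin peptides gave no call between the treatments. Of the 15 listed, 11 were tested, 8 lower and 3 higher with rIL-33, 0 past the threshold and 1 at an unadjusted limma p under 0.05, with a median difference of -0.11 against -0.01 over all genes tested. An unadjusted p under 0.05 was reached by 9.63% of all genes tested, about the share in this list. Of all genes tested, 52.0% were lower with rIL-33. That share stands beside the counts of lower genes in this list and in the pathway and marker lists below. Ren1 was not analysed here, and the mast cell chymase gene Cma1 and the cathepsin gene Ctsg were dim. Cpa3, the mast cell carboxypeptidase, differed most at -0.38 (SE 0.25), and split by label it was -0.76 for C57BL/6 and -0.0020 for WT. Mme, neprilysin, which cuts angiotensin I and many other peptides, averaged 8.29 ± 0.21 in the PBS group and 7.92 ± 0.29 in the rIL-33 group (SD, n = 4 per group), differing by -0.37 (SE 0.15). Between the labels, Mme (-0.37), the mast cell protease gene Mcpt4 (-0.58) and the prolyl endopeptidase gene Prep (-0.26) were lower with WT (limma adjusted p between 0.0354 and 0.0491), 3 of 11 beside the 6.20% of all genes. Whether these 3 calls hold after quantile normalization was not tested.

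Of 7 other receptors listed, 5 were tested, 3 higher and 2 lower with rIL-33 with a median of 0.06, 0 past the threshold and 1 at an unadjusted limma p under 0.05 (9.63% of all genes). The mineralocorticoid receptor gene Nr3c2, through which aldosterone acts, ran from 8.16 to 8.43 with PBS and from 8.45 to 8.72 with rIL-33, a difference of 0.26 (SE 0.09, limma adjusted p = 0.489). All its rIL-33 arrays lay above all its PBS arrays, as in 2.44% of all genes tested. Bdkrb1, the inducible kinin receptor, differed by -0.19 (SE 0.11). The other zinc aminopeptidases of the M1 family, to which Enpep and Anpep belong, had 5 of 7 tested genes higher and 2 lower with rIL-33 (median 0.10, 0 past the threshold, 0 at an unadjusted limma p under 0.05), and 1 of the 8 listed, Trhde, was dim. Erap1, a trimming enzyme of antigen peptides, differed by 0.27 (SE 0.16) and Lvrn by 0.14 (SE 0.11).

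Downstream of the type 1 receptor, 31 transducers and regulators were listed and 28 tested. With rIL-33, 21 were lower and 7 higher, with a median of -0.05, 0 past the threshold and 4 at an unadjusted limma p under 0.05, beside 9.63% of all genes. Of these 4, Prkca was higher with rIL-33 by 0.25 (SE 0.09) and the others were lower. Nox4, an NADPH oxidase induced by angiotensin II in many cells, differed by -0.42 (SE 0.17) and Egfr, which the receptor transactivates, by -0.27 (SE 0.11). Textbook target genes of this receptor were lower in 9 of 11 tested and higher in 2, with a median of -0.34, 0 past the threshold and 4 at an unadjusted limma p under 0.05, beside the same 9.63%. Timp1, an inhibitor of matrix proteases, averaged 10.17 ± 0.58 in the PBS group and 9.45 ± 0.51 in the rIL-33 group (SD, n = 4 per group), differing by -0.72 (SE 0.30). Thbs1, thrombospondin, differed by -0.58 (SE 0.24). In both genes the groups overlapped, and the genes have many other inducers.

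Partners and transducers of the type 2 receptor were mixed, with 6 of 11 lower and 5 higher, a median of -0.01, 0 past the threshold and 2 at an unadjusted limma p under 0.05 (9.63% of all genes). Zbtb16 encodes PLZF, a zinc finger protein that has been reported to bind the type 2 receptor. It ran from 9.96 to 10.20 with PBS and from 10.38 to 10.70 with rIL-33, a difference of 0.47 (SE 0.10, limma adjusted p = 0.489), opposite in sign to that of Agtr2, and was the 1 gene of the 11 without overlap (2.44% of all genes lay higher in this way). The neuronal nitric oxide synthase gene Nos1, which muscle fibres express, differed by 0.30 (SE 0.14). Between the labels 1 of these 11 genes passed, the kinase gene Tnk1, higher with WT by 0.24 (limma adjusted p = 0.0449), beside 3.19% of all genes called higher and 9.40% called either way. Whether the Tnk1 call holds after quantile normalization was not tested.

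**Figure D4:**
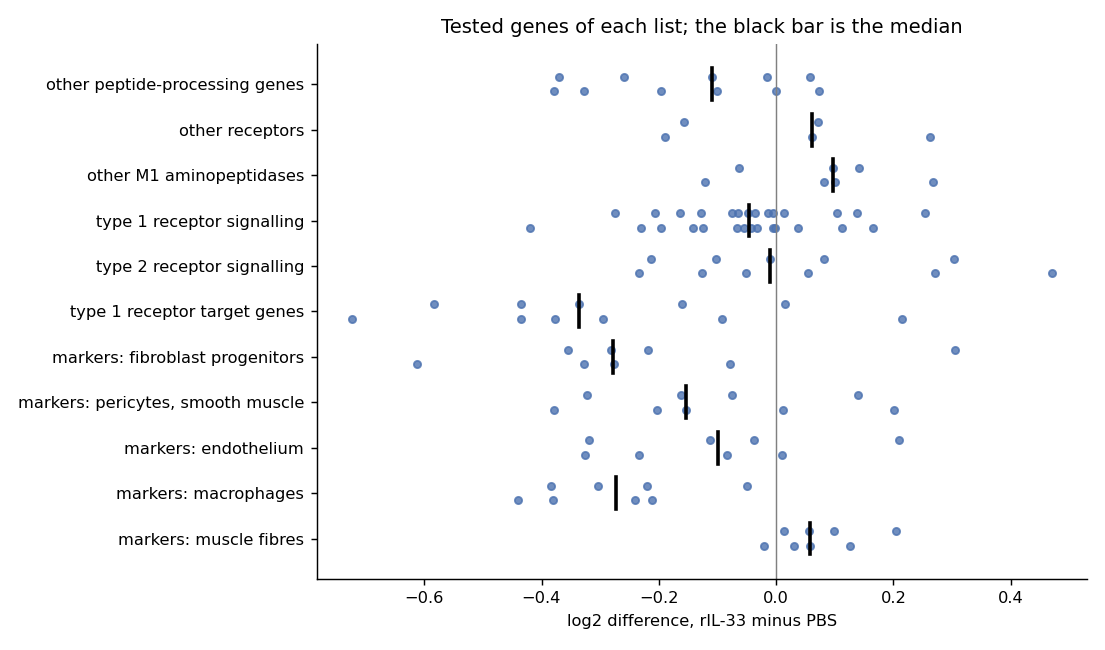
Log2 difference, rIL-33 minus PBS, of every tested gene of 6 pathway lists and 5 marker lists (points) with the list's median (black bar). The target genes of the type 1 receptor (median -0.34) and the markers of fibroblast progenitors (-0.28) and macrophages (-0.27) lie mostly left of 0, those of muscle fibres (0.06) mostly right of it.

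Markers of cell types that can express these genes were set beside the receptors and Ace. The lists were chosen with earlier results of these data known, so their counts are a description. Of the fibroblast progenitor markers, 7 of 8 tested were lower with rIL-33 and 1 higher (median -0.28), and their summed intensity was 18260 to 20546 on the PBS arrays and 15511 to 17073 on the rIL-33 arrays. Dpt, dermatopontin, differed by -0.61 (SE 0.15) and Pdgfra, the surface receptor that defines these cells, by -0.35 (SE 0.11). All 8 macrophage markers were lower (median -0.27, sums of 10616 to 13282 against 8541 to 11395), with Adgre1, a surface receptor gene of macrophages, at -0.44 (SE 0.15) and the chemokine receptor gene Cx3cr1 at -0.38 (SE 0.07). Of the endothelial markers 6 of 8 were lower (median -0.10, sums of 8529 to 9236 against 7281 to 8532), Eng by -0.33 (SE 0.10) and Emcn by -0.32 (SE 0.08) in log2 mean, and of the pericyte and smooth muscle markers 6 of 9 (median -0.15, sums of 12956 to 14473 against 10568 to 13078), Pdgfrb and Acta2 differing by -0.38 (SE 0.12) and -0.32 (SE 0.14). Genes lower without overlap were 3 of 8 fibroblast progenitor, 2 of 9 pericyte and smooth muscle, 2 of 8 endothelial and 1 of 8 macrophage markers, beside 2.13% of all genes. In the same order, 6, 2, 4 and 3 had an unadjusted limma p under 0.05 in either direction, beside 9.63% of all genes. Among these, Gsn of the fibroblast progenitor list (0.31, SE 0.11) and Vwf of the endothelial list (0.21, SE 0.09) were higher with rIL-33. The others were lower. In the muscle fibre, regenerating fibre, adipocyte, mast cell and hepatocyte lists the count at this level was 0. The sums, here and below, weigh bright probe sets most, as Dcn (13.19 with PBS) among the fibroblast progenitor markers. Dim genes of a list were summed too, so a sum does not measure the list as a whole. No marker passed the threshold. Their part in the differences of Agtr1a, Agtr2 and Ace was not tested.

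The other marker lists were mixed. Muscle fibre markers were higher in 7 of 8 (median 0.06, sums of 83351 to 96483 with PBS and 89355 to 97651 with rIL-33), with the light chain gene Mylpf at 0.20 (SE 0.18) and Tnni2 at 0.13 (SE 0.13). Genes of regenerating fibres were lower in 7 of 8 (median -0.06, sums of 13661 to 15910 against 11496 to 16630), Myog and Myod1 differing by -0.22 (SE 0.19) and -0.11 (SE 0.13). Adipocyte markers, a possible source of Agt, were higher in 3 of 5 tested (median 0.07, sums of 2455 to 2846 against 2631 to 2695), with Plin1 at 0.22 (SE 0.10) and Cidec at 0.10 (SE 0.11). Mast cell markers were lower in 3 of 4 (median -0.25, sums of 961.9 to 1596 against 1071 to 1143), led by Cpa3 and Mcpt4, while Cma1 and Ms4a2 were dim. Among hepatocyte markers the defining genes Alb, Ttr and Fgb were dim and Apoa1, the 1 tested, differed by -0.0046 (SE 0.14), with sums of 353.8 to 492.0 against 377.7 to 442.3. Between the labels, Kdr of endothelium (-0.35), Mylpf (-0.51), Tnni2 (-0.31) and Mcpt4 were lower with WT, and Pck1 (0.32) and Apoa1 (0.34) higher, with limma adjusted p between 0.0165 and 0.0472. These are 6 of 59 markers tested, 4 lower and 2 higher, a share near the 9.40% of all genes. The part of these cells in the label differences of Agt and Enpep was not tested. After quantile normalization 415 genes instead of 1392 passed for the label, and the label calls of single markers were not tested there. The part of the narrower intensity distribution of the WT-labelled arrays in these calls was therefore not tested.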

How the data were processed

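Total RNA of 8 muscle samples was hybridised, 1 array a sample. Per the submitters' processing notes, the authors made the deposited intensity values with RMA and Affymetrix Power Tools, with no version stated. The table held 24922 probe sets on a linear intensity scale, so log2 was taken. Of these, 21425 had exactly 1 symbol in the platform annotation, and for each of 19752 genes the probe set of highest mean log2 was used. Genes under the 25th percentile (4938) were left out. The models were fitted in R 4.3.3 with limma 3.58.1 (lmFit, eBayes), two-sided, with Benjamini-Hochberg adjustment over 14814 genes; the label contrast had treatment as a term. The number of arrays limits the precision. The script was tested on simulated data. Members and lists were chosen with earlier results of these data known.

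Named were all members, the 2 tested genes of largest difference in each list, and the 5 genes most like Agtr2, Agtr1a and Ace by each measure. Ckm, Gsn, Vwf, Prkca and the list genes called between labels were chosen after their values were seen. Plots were made in Python 3.11.15 (matplotlib 3.10.9).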

Additional observations from a re-analysis of the deposited data

Results flagged for a closer look

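Among 16 groups of 4 arrays (8 genes by 2 treatments), 2 held an array far from the other 3 for the group's range, and chance alone marks about 1 in 20 such groups. Ace stood at 10.28 in rIL-33 replicate 4, where the nearest of the other rIL-33 arrays was 9.996. Anpep stood at 11.03 in PBS replicate 4, where the nearest of the other PBS arrays was 10.86.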

How the results depend on the processing

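The treatment differences of Agtr1a, Agtr2, Agt and Ace kept their sign under all alternatives that gave a value (19, or 18 for Agtr2, which the dim filter at the 50th percentile removed). They ranged from -0.50 to -0.38, -1.01 to -0.70, 0.09 to 0.27 and -0.57 to -0.23, and no member passed the threshold in any. Whether the replicate numbers pair the arrays could not be decided. Deviations of same-numbered arrays from their group means correlated at 0.44, -0.19, 0.43 and 0.54. Arrays correlated best with their own number for 2 of the 4 numbers. Same-numbered arrays also share a genetic background label, and these deviations keep the label difference. With the replicate number as a block the count of genes past the threshold was 0 instead of 1, with 2327 genes at an unadjusted limma p under 0.05. That count was 2 in the C57BL/6-labelled and 4 in the WT-labelled arrays alone, and 1 to 2 with an array left out. The label count of 1392 was 415 after quantile normalization, 471 after cyclic loess, 892 with the dim filter at the 50th percentile, 3432 with array weights and 796 without a treatment term. It was 10 to 2512 with an array left out, lowest without rIL-33 replicate 1. The calls of Agt and Enpep were lost without any 1 of 7 arrays and held without rIL-33 replicate 2. Split by direction, 306 of the 415 genes and 351 of the 471 were lower with WT. The label difference of Ace turned to 0.0559, 0.0703 and 0.0399 under quantile normalization, cyclic loess and array weights, and ran from -0.14 to 0.0321 with an array left out; that of Anpep turned to 0.0575, 0.0723 and 0.10 and ran from -0.11 to 0.10. The interaction count was 0 to 8 with an array left out, and the interaction ran from -0.0754 to 0.0552 for Enpep and from -0.50 to 0.0221 for Anpep. The cause of these shifts was not tested.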
